A study of Mus musculus with 12 samples.

Results

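The genes described here are 39 genes of fatty acid oxidation and targets of the fatty acid receptor PPAR-alpha, taken from a list of symbols that was drawn up with earlier results of these data known. They were found by symbol among 18820 genes, with the probe set of highest mean standing for a gene that had several. A probe set that carried 1 symbol measured 35 of the 39. Cyp4a10 and Acadvl were present only on probe sets that also carry other symbols and are shown apart, and Acsl1 and Ucp2 were not named by a probe set here. By step, 15 of the measured genes are mitochondrial, 10 peroxisomal, 2 microsomal and 1 ketogenic, and 7 stand outside these steps.

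RNA of 6 male C57BL/6 mice aged 7 to 8 weeks was measured on 12 arrays in 4 groups of 3. The groups were JNKΔhepa liver, WT liver, JNKΔhepa primary hepatocytes and WT primary hepatocytes, and every mouse contributed liver tissue as well as isolated hepatocytes. In JNKΔhepa mice a floxed Jnk1 (Mapk8) was recombined by Albf-Cre, a Cre under the albumin promoter and alpha-fetoprotein enhancer elements that acts in hepatocytes, and Jnk2 (Mapk9) was absent from every cell (Jnk2-/-). WT mice were Jnk1f/fJnk2+/+ littermates, so both genotypes carried floxed Jnk1, while Cre and the loss of Jnk2 were in JNKΔhepa only. Effects of losing JNK1 in hepatocytes, of losing JNK2 in hepatocytes or other cells, and of Cre therefore cannot be told apart here. The same holds for any other DNA that differs between the genotypes, which was not examined. All mice had standard chow and water freely available. Values are log2 expression after RMA (robust multi-array average), and the value of each array is given in the order of replicates 1, 2 and 3.

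The liver burns fatty acids mainly in mitochondria, where the carnitine shuttle admits long chains and a repeated cycle of dehydrogenation, hydration, oxidation and thiolysis shortens them to acetyl-CoA, part of which becomes ketone bodies. Very long chains are first shortened in peroxisomes, and microsomal CYP4A enzymes oxidise the far end of the chain. PPAR-alpha, a nuclear receptor activated by fatty acids, pairs with RXR on DNA repeats of the hexamer AGGTCA and raises the expression of genes in all of these routes, most strongly during fasting.

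Across probe sets, r between arrays of the same group was 0.9865 to 0.9928. Mapk9 read 2.85, 2.33 and 3.02 on the JNKΔhepa liver arrays, against 8.64, 8.69 and 8.59 on the WT liver arrays. In hepatocytes Mapk9 read 2.62, 2.57 and 2.29 in JNKΔhepa, against 8.10, 7.74 and 8.05 in WT. All JNKΔhepa readings of Mapk9 were dim, meaning below the median of all probe sets of their array. Mapk8 averaged 5.98 in JNKΔhepa liver against 6.39 in WT liver, and 4.99 in JNKΔhepa hepatocytes against 5.59 in WT hepatocytes, but the removed stretch of Mapk8 is not given in the labels, so its probe set may lie outside it. Of 10 hepatocyte markers, 0 were dim on all arrays of any group.

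Some arrays stood apart for these 35 genes. WT liver replicate 3 held the highest of the 3 WT liver readings for 32 of the 35 genes, whereas it did so for 32% of all genes, and its median lead over the mean of the other 2 arrays was 0.36. JNKΔhepa liver replicate 3 was the highest of its group for 28 of the 35 (34.3% of all genes), with a median lead of 0.16. Among the hepatocyte arrays, JNKΔhepa replicate 1 was the lowest of its group for 31 of the 35 (32.1% of all genes), with a median of 0.18 below the other 2 arrays. JNKΔhepa hepatocyte replicate 3, from the mouse of JNKΔhepa liver replicate 3, was the highest of its group for 24 (33.1% of all genes). WT hepatocyte replicate 3, from the mouse of WT liver replicate 3, was the lowest of its group for 19 (34.9% of all genes). Below, the counts and medians of the set are also given without WT liver replicate 3, JNKΔhepa liver replicate 3 and JNKΔhepa hepatocyte replicate 1. The genes whose liver values moved most are given too. These arrays were picked by their readings of the 35 genes, so the direction in which leaving them out moves the values was largely fixed beforehand.

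In whole liver, all 35 measured genes had higher means in JNKΔhepa than in WT, and 2 of them rose past the threshold of a Benjamini-Hochberg adjusted p of 0.05 over all genes (limma). One was Acadm, whose product dehydrogenates medium-length acyl-CoA in mitochondria, and the other Ehhadh, the peroxisomal bifunctional enzyme that hydrates and oxidises enoyl-CoA. None fell. Over all genes tested 0.558% passed as higher, 0.367% as lower and 0.925% in either direction, and 54.4% had a value above 0. The median log2 change of the 35 genes was 0.31, beside 0.0155 over all genes tested. In 19 of the 35 genes every JNKΔhepa liver array lay above every WT liver array, which held for 12.9% of all genes, and 20 had an unadjusted p under 0.05, beside 12.5% of all genes. On the liver arrays the median reading of the 35 genes was 9.26 to 9.89, beside 4.09 to 4.12 over all probe sets. The shares over all genes thus also take in genes of much lower level. These are bulk tissue samples, so a change in RNA per cell and a change in the share of a cell type cannot be told apart.

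**Figure D1:**
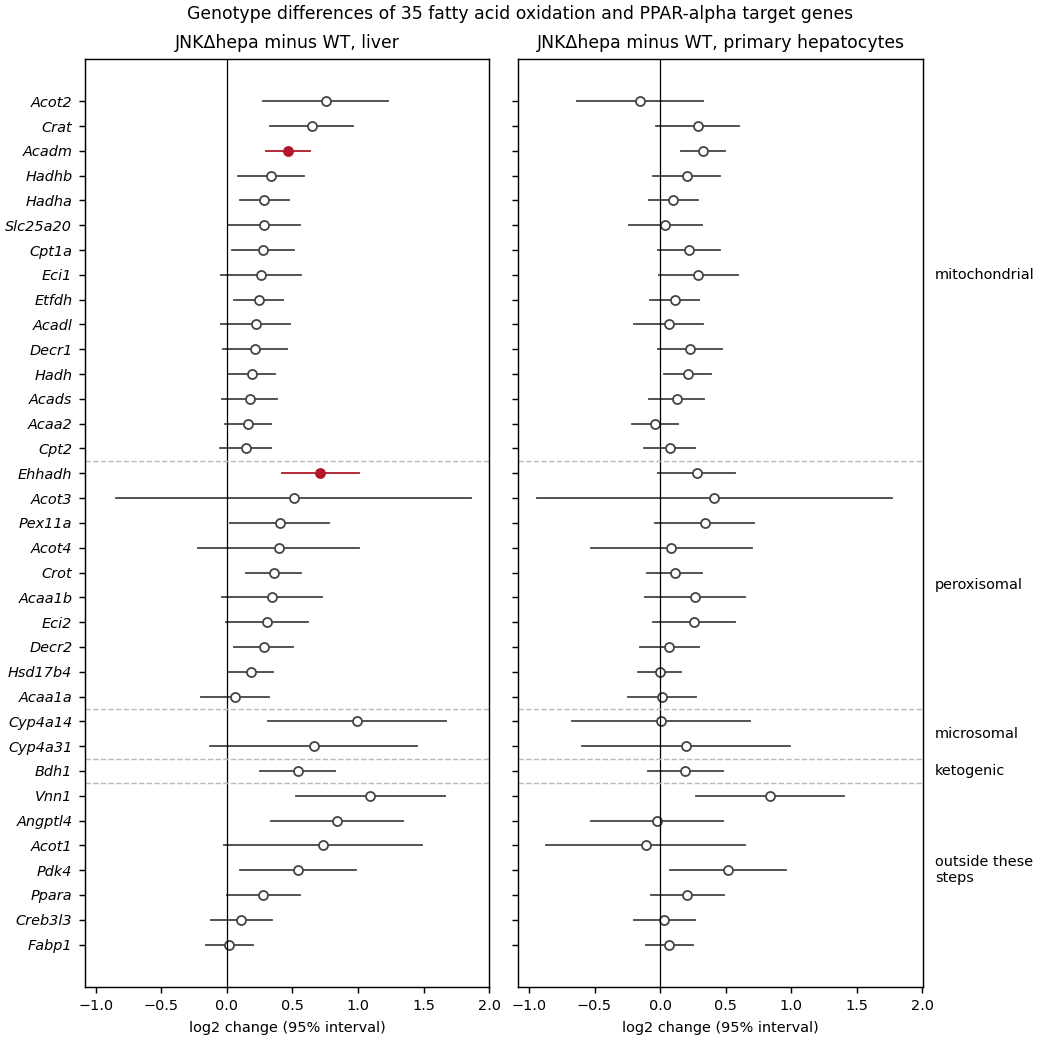
Log2 change of each of the 35 measured genes, JNKΔhepa minus WT, in liver (left) and in primary hepatocytes (right), with 95% limma intervals; filled red points passed the adjusted threshold. All 35 points lie above 0 in liver with 2 filled, and 30 lie above 0 in hepatocytes with 0 filled.

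Acadm read 11.12, 11.26 and 11.24 on the JNKΔhepa liver arrays, against 10.67, 10.75 and 10.81 on the WT liver arrays. The lowest JNKΔhepa array was above the highest WT array, and both groups were tight. The change was 1.38-fold (log2 change 0.46, SE 0.0775, 95% interval 0.30 to 0.63, limma adjusted p = 0.0125). The call was lost without WT liver replicate 1 (limma adjusted p = 0.0675), JNKΔhepa liver replicate 2 (0.0609) or JNKΔhepa liver replicate 3 (0.0651).

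Ehhadh read 10.70, 10.64 and 10.95 on the JNKΔhepa liver arrays, against 9.88, 9.97 and 10.30 on the WT liver arrays. The groups did not overlap, and replicate 3 was the highest in each. The change was 1.64-fold (log2 change 0.71, SE 0.135, 95% interval 0.42 to 1.01, limma adjusted p = 0.0274). The call held without WT liver replicate 3 (0.84, adjusted p = 0.0125) and was lost without any 1 of the other liver arrays, with limma adjusted p-values of 0.132 and 0.104 for WT replicates 1 and 2 and of 0.074, 0.051 and 0.114 for JNKΔhepa replicates 1, 2 and 3.

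The promoters of these 2 genes and that of Fabp1, the gene of the liver fatty acid-binding protein, are shown, those of Acadm and Ehhadh because their genes passed in liver and that of Fabp1 because it holds the closest match to a PPAR-alpha motif in the set. Each runs 5′ to 3′ on the strand of its gene, from 250 bases before the annotated start to 50 bases after it, in RefSeq's GRCm38.p6 assembly, and capitals mark a match to the motif. They lie at chr3:153944594-153944893 (minus strand) for Acadm, chr16:21787785-21788084 (minus strand) for Ehhadh and chr6:71199629-71199928 (plus strand) for Fabp1.
Acadm: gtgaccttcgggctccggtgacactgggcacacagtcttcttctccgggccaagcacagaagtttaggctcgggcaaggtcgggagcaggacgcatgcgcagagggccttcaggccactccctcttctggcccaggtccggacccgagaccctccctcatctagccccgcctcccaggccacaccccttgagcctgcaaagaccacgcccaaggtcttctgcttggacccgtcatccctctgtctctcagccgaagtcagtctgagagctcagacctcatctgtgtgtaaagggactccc
Ehhadh: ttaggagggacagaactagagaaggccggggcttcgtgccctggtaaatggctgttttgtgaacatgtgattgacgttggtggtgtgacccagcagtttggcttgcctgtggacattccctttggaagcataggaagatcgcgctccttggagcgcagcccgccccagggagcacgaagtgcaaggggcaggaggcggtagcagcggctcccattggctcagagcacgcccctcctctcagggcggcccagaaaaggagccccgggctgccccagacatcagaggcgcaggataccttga
Fabp1: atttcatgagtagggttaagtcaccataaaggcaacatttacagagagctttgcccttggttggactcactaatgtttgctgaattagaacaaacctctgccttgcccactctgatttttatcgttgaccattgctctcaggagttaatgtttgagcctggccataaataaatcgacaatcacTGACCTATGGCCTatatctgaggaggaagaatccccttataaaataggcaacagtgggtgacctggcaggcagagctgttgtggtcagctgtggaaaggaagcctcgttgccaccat

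The motif searched was AGGTCA, any 1 base (N) and AGGTCA again, on both strands. RefSeq promoters were found for 30 of the 39 genes, 34 promoters in all, and 0 of them held the motif without mismatch, beside 0.0396% of 32851 mouse promoters. With 1 mismatch allowed, Fabp1 alone matched (0.554% of all promoters), 67 bases before its start on the opposite strand. With 2 mismatches allowed, 4 of the 30 genes matched, 11.8% of their promoters beside 3.86% of all promoters. The 4 sites follow in the motif's orientation, with matching bases in capitals and mismatched bases in lower case.
Fabp1, chr6:71199812-71199824: AGGcCATAGGTCA
Acot4, chr12:84038366-84038378: cGGcCAAAGGTCA
Creb3l3, chr10:81092788-81092800: AGGggAGAGGTCA
Slc25a20, chr9:108662142-108662154: AGGTgAAAGGTCg
Acadm and Ehhadh had no match in this window. A match is a description of the letters and was not tested as a binding site. The 4 genes with a match had liver log2 changes of 0.02 for Fabp1, 0.39 for Acot4, 0.11 for Creb3l3 and 0.29 for Slc25a20, none of which passed the limma threshold.

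Of the regulators, Ppara, the receptor itself, averaged 9.81 ± 0.0087 in JNKΔhepa liver and 9.53 ± 0.31 in WT liver (SD, n = 3 each), a log2 change of 0.28 (limma adjusted p = 0.396). WT liver replicate 3 lay above all 3 JNKΔhepa arrays, and the other 2 WT arrays lay below them. Creb3l3, a liver-enriched transcription factor anchored in the endoplasmic reticulum that acts with PPAR-alpha in fasting, averaged 9.07 ± 0.0861 in JNKΔhepa liver and 8.96 ± 0.236 in WT liver (log2 change 0.11, adjusted p = 0.76), with overlapping arrays.

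The 4 genes of the carnitine shuttle had log2 changes of 0.14 to 0.65 in liver. Of these, 0 of 4 passed limma's adjusted threshold while 3 had an unadjusted p under 0.05, beside 12.5% of all genes. Crat, the carnitine acetyltransferase that buffers acetyl-CoA, averaged 9.13 ± 0.314 in JNKΔhepa liver and 8.48 ± 0.0676 in WT liver (0.65 on the log2 scale, limma adjusted p = 0.062, SE 0.146), and its arrays did not overlap. Cpt1a, the outer-membrane transferase that controls entry of long chains, averaged 11.01 ± 0.0236 in JNKΔhepa liver and 10.73 ± 0.244 in WT liver (0.27, adjusted p = 0.309), with WT replicate 3 among the JNKΔhepa arrays. Slc25a20, the acylcarnitine carrier of the inner membrane, had a change of 0.29 (adjusted p = 0.381), and Cpt2, which returns the chain to CoA in the matrix, one of 0.14 (adjusted p = 0.57).

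In the mitochondrial cycle, Acadm was the only gene of its step to pass, 1 of 15. The trifunctional protein genes Hadha and Hadhb had log2 changes of 0.29 (limma adjusted p = 0.166) and 0.34 (adjusted p = 0.234), and neither overlapped between the genotypes. Another probe set of Hadhb gave 0.33. Hadh, which oxidises short hydroxyacyl-CoA, had 0.19, the long-chain and short-chain dehydrogenase genes Acadl and Acads 0.22 and 0.17, and the thiolase gene Acaa2 0.16, with limma adjusted p-values of 0.363 to 0.507. Etfdh, which hands electrons from these dehydrogenases to ubiquinone, had 0.24 (adjusted p = 0.24). Eci1 and Decr1, which handle unsaturated chains, had 0.26 and 0.21 (adjusted p = 0.494 and 0.475), both with overlapping arrays. The median of the 15 mitochondrial genes was 0.26. In 10 of the 15 every JNKΔhepa array lay above every WT array, beside 12.9% of all genes.

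The probe set shared by Acadvl, the very-long-chain dehydrogenase gene, and Dvl2 read 9.22, 9.21 and 9.27 in JNKΔhepa liver, against 8.96, 8.97 and 9.11 in WT liver. Its arrays did not overlap, its log2 change was 0.22 (limma adjusted p = 0.349 over all probe sets), and the signal cannot be assigned to either gene.

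The 10 peroxisomal genes had a median log2 change of 0.35 in liver, and 1 of 10 (Ehhadh) passed. In 5 every JNKΔhepa array lay above every WT array, beside 12.9% of all genes. Crot, the peroxisomal carnitine octanoyltransferase, had 0.36 (SE 0.0974, limma adjusted p = 0.121), and Pex11a, which promotes peroxisome division, 0.40 (adjusted p = 0.362), both without overlap. The thiolase gene Acaa1b had 0.34 without overlap (adjusted p = 0.458), whereas its near-identical neighbour Acaa1a had 0.06 with overlap (adjusted p = 0.9). Decr2 and Eci2, the peroxisomal counterparts of Decr1 and Eci1, had 0.28 and 0.31 (adjusted p = 0.267 and 0.417), and the D-bifunctional enzyme gene Hsd17b4 0.18 (adjusted p = 0.342).

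Thioesterases release free fatty acids from CoA, and 0 of 4 passed limma in liver, with log2 changes of 0.39 to 0.75. Acot2, the mitochondrial form, averaged 8.76 ± 0.268 in JNKΔhepa liver and 8.01 ± 0.459 in WT liver (0.75, adjusted p = 0.151). The cytosolic form Acot1 had 0.73 (adjusted p = 0.416), and the peroxisomal forms Acot3 and Acot4 0.51 (adjusted p = 0.827) and 0.39 (adjusted p = 0.642). Acot3 varied most between mice, with an SD of 1.26 in JNKΔhepa liver and 1.43 in WT liver, and replicate 3 was far above the other 2 arrays in each group. Without JNKΔhepa liver replicate 3 its change was -0.21.

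Among the microsomal omega-hydroxylases, Cyp4a14 read 12.01, 11.99 and 12.37 on the JNKΔhepa liver arrays, against 11.00, 10.42 and 11.98 on the WT liver arrays. The groups did not overlap, but WT replicate 3 was far above WT replicates 1 and 2 and just below the lowest JNKΔhepa array. The change was 1.99-fold (log2 change 0.99, SE 0.314, 95% interval 0.31 to 1.67, limma adjusted p = 0.189). Cyp4a31 averaged 9.93 ± 0.485 in JNKΔhepa liver and 9.27 ± 0.807 in WT liver (0.66, adjusted p = 0.503), with overlap. The probe sets that name Cyp4a10 together with Cyp4a31, and with Cyp4a31 and Cyp4a32, gave 0.41 and 0.40 (limma adjusted p = 0.634 and 0.639). These genes, and Acot1 with Acot2 and Acaa1a with Acaa1b, are near-identical copies whose signals may be shared by the probes.

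Bdh1, the ketogenic gene of the set, encodes the dehydrogenase that reduces acetoacetate to hydroxybutyrate. It read 9.93, 10.05 and 9.99 on the JNKΔhepa liver arrays, against 9.21, 9.37 and 9.76 on the WT liver arrays. The groups did not overlap, and WT replicate 3 was the highest of its group. The change was 1.46-fold (log2 change 0.54, SE 0.132, 95% interval 0.26 to 0.83, limma adjusted p = 0.0859).

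Outside these steps, Vnn1, a pantetheinase that recycles the CoA precursor pantothenate, had the largest liver change of the set. It read 10.05, 9.52 and 10.25 on the JNKΔhepa liver arrays, against 8.47, 8.51 and 9.55 on the WT liver arrays. WT replicate 3 lay just above JNKΔhepa replicate 2, so the groups overlapped, while the other WT arrays were about 1 log2 unit or more below every JNKΔhepa array. The change was 2.14-fold (log2 change 1.10, SE 0.262, 95% interval 0.53 to 1.66, limma adjusted p = 0.0785).

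Angptl4, a secreted inhibitor of lipoprotein lipase, averaged 8.63 ± 0.401 in JNKΔhepa liver and 7.79 ± 0.361 in WT liver (0.84, SE 0.233, limma adjusted p = 0.128), without overlap. Pdk4, the kinase that inhibits pyruvate dehydrogenase and so spares glucose, averaged 6.20 ± 0.564 in JNKΔhepa liver and 5.66 ± 0.0538 in WT liver (0.55, adjusted p = 0.274). Its arrays did not overlap, and JNKΔhepa replicate 3 was far above the other 2. Fabp1 averaged 12.11 ± 0.0021 in JNKΔhepa liver and 12.09 ± 0.11 in WT liver (0.02, 95% interval -0.16 to 0.20, adjusted p = 0.965), the smallest change of the 35.

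**Figure D2:**
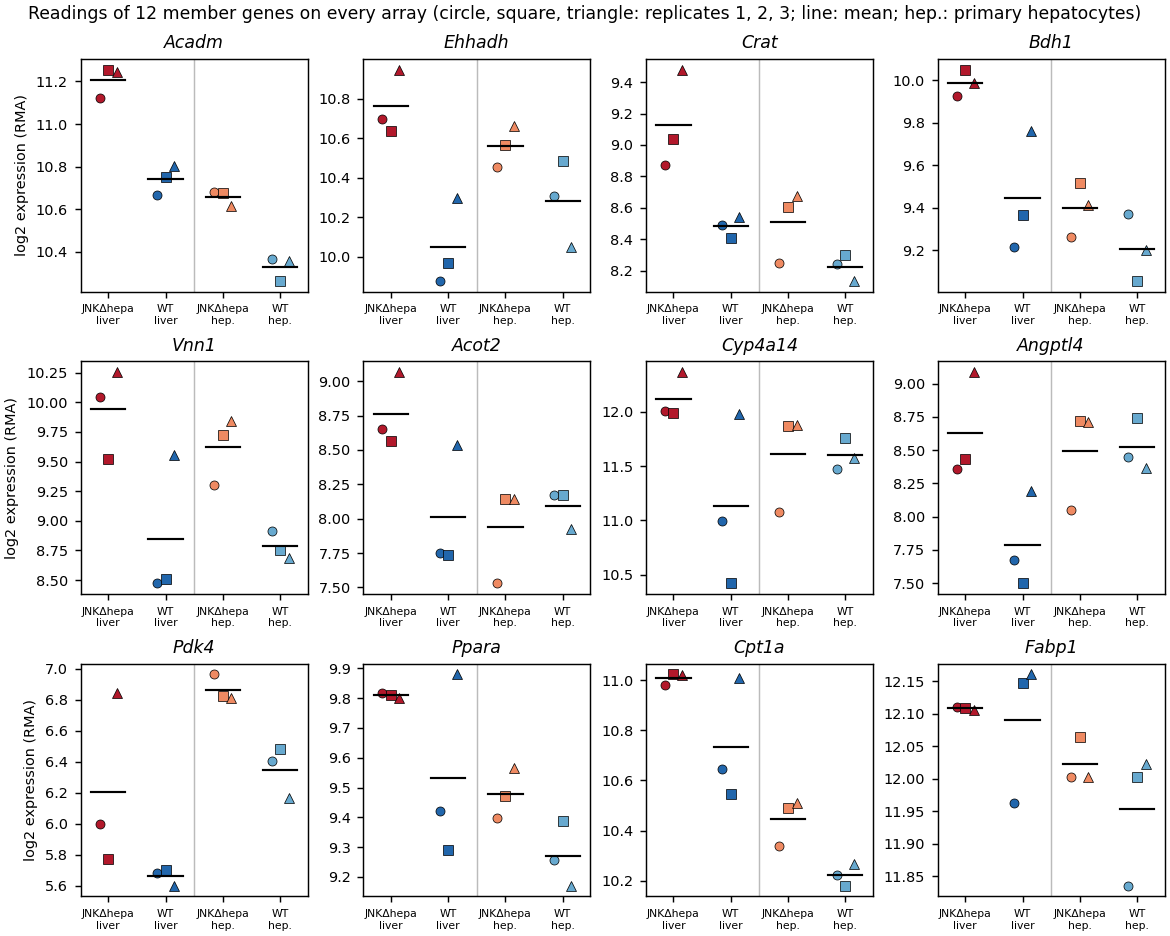
Log2 readings of 12 genes of the set on each of the 12 arrays, by group, with the group mean as a line and the replicate number as the marker shape; each panel has its own vertical range. Acadm and Ehhadh separate the genotypes in liver without overlap, whereas WT liver replicate 3 lies within or next to the JNKΔhepa liver range for Vnn1, Cyp4a14, Ppara and Cpt1a.

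Leaving out WT liver replicate 3 moved the count of genes that rose in liver to 7 of 35, beside 0.632% of all genes as higher, and 0 fell. The 7 were Acadm (log2 change 0.50, limma adjusted p = 0.0195), Ehhadh (0.84, 0.0125), Vnn1 (1.45, 0.00531), Cyp4a14 (1.41, 0.0154), Bdh1 (0.70, 0.0136), Acot2 (1.02, 0.0262) and Ppara (0.45, 0.0485). The lone pair of WT liver arrays in that fit shares the spread of the other groups. WT liver replicate 3 was picked for its high readings of these same genes, so leaving it out raises most of their changes by construction. The 7 calls are therefore a description and not a test. The median of the 35 genes was then 0.42. Leaving out JNKΔhepa liver replicate 3, the high array of its group, moved the median to 0.25 and the count to 0, and 34 of the 35 values stayed above 0.

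Several liver values that passed no test also moved by more than 1.5 times with these 2 arrays. Without JNKΔhepa liver replicate 3 the log2 change of Pdk4 was 0.23, of Acot1 0.39, of Acot4 0.25 and of Cyp4a31 0.39. Without WT liver replicate 3 that of Cyp4a31 was 1.11, of Acot3 1.33, of Acot4 0.81 and of Cpt1a 0.41. Counted over both arrays, the changes of Acadl, Acaa1a, Acaa1b, Creb3l3, Fabp1, Cpt2, Slc25a20, Eci1, Eci2 and Decr1 moved as much, to values between 0.04 and 0.40.

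The count of genes that rose in liver was also 0 without WT liver replicate 1 or JNKΔhepa liver replicate 2. It was 1 without WT liver replicate 2 or JNKΔhepa liver replicate 1. Leaving out an array can also change the share of all genes called. That share is not given for these fits or for the one without JNKΔhepa liver replicate 3.

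**Figure D3:**
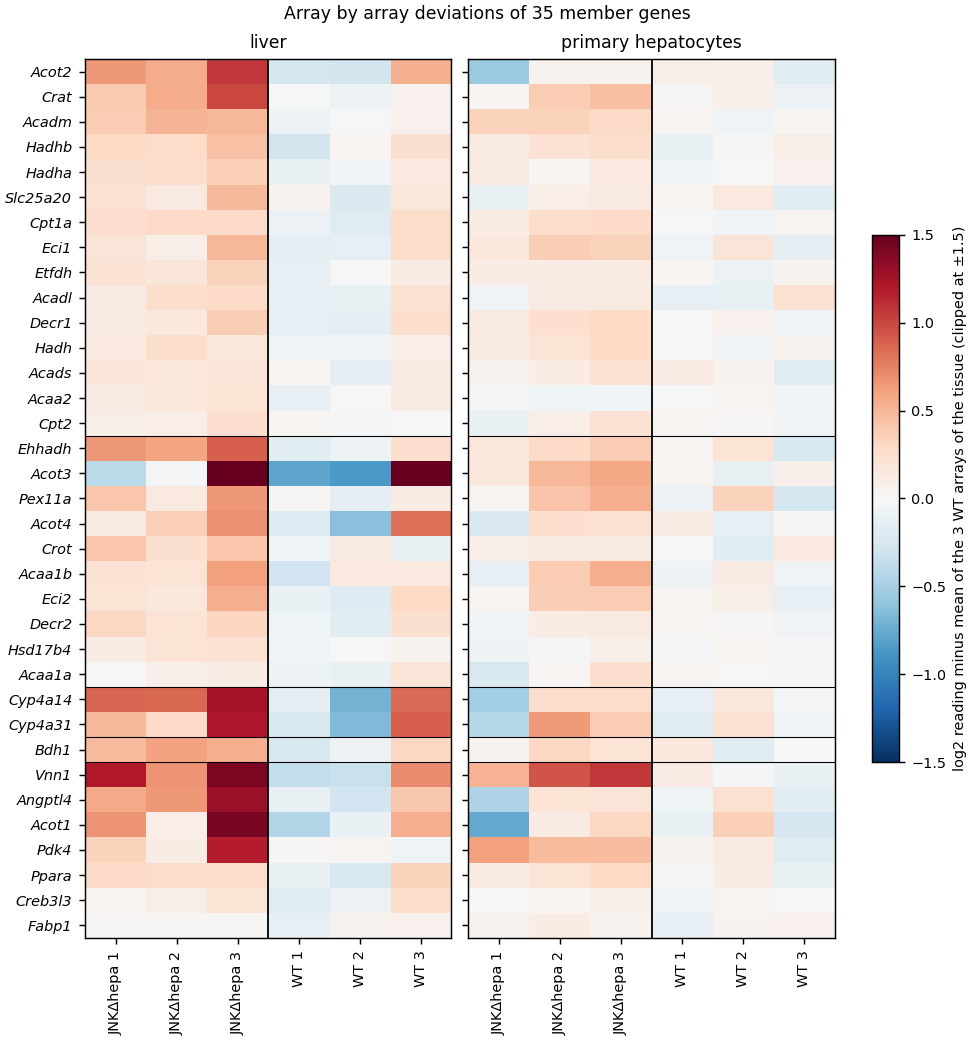
Deviation of every array from the mean of the 3 WT arrays of its tissue for the 35 genes (log2 units, clipped at 1.5), grouped by step from mitochondrial at the top to the genes outside these steps at the bottom. In liver the JNKΔhepa columns and WT replicate 3 are mostly red and WT replicates 1 and 2 mostly pale blue; in hepatocytes most cells are paler and JNKΔhepa replicate 1 is blue for Acot1, Acot2, Angptl4, Cyp4a14 and Cyp4a31.

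The same genotypes were compared in primary hepatocytes, the isolated parenchymal cells of the same mice. None of the 35 genes passed limma's adjusted threshold there, beside 0.84% of all genes, of which 0.367% were higher. An unadjusted p under 0.05 was reached by 4 (12.6% of all genes), namely Acadm, Vnn1, Hadh and Pdk4, all higher in JNKΔhepa. Values were above 0 for 30 genes and below 0 for 5 (49.4% of all genes above 0), with a median log2 change of 0.13 beside -0.0018 over all genes tested. Every JNKΔhepa array lay above every WT array for 10 of the 35, which held for 7.36% of all genes. By step the medians were 0.13 for the mitochondrial genes, 0.19 for the peroxisomal, 0.10 for the microsomal and 0.07 for those outside these steps.

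Acadm read 10.68, 10.68 and 10.62 on the JNKΔhepa hepatocyte arrays, against 10.37, 10.26 and 10.36 on the WT hepatocyte arrays. Its groups did not overlap, as in liver. The change was 1.26-fold (log2 change 0.33, SE 0.0775, 95% interval 0.16 to 0.50, limma adjusted p = 0.0725), and it passed when dim genes were left out of the test (adjusted p = 0.0405) or with an intensity trend and robust prior (adjusted p = 0.019).

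Ehhadh read 10.45, 10.57 and 10.66 on the JNKΔhepa hepatocyte arrays, against 10.31, 10.48 and 10.05 on the WT hepatocyte arrays. JNKΔhepa replicate 1 lay just below WT replicate 2, so the groups overlapped. The change was 0.28 on the log2 scale (SE 0.135, 95% interval -0.01 to 0.57, limma adjusted p = 0.429). Bdh1 read 9.26, 9.52 and 9.41 in JNKΔhepa hepatocytes, against 9.37, 9.05 and 9.20 in WT hepatocytes. These arrays overlapped too, with a change of 0.19 (95% interval -0.10 to 0.48, adjusted p = 0.624).

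Vnn1 had the largest hepatocyte change of the set. It read 9.30, 9.73 and 9.84 on the JNKΔhepa hepatocyte arrays, against 8.91, 8.76 and 8.69 on the WT hepatocyte arrays. Here all JNKΔhepa arrays were above all WT arrays, with a change of 1.79-fold (log2 change 0.84, SE 0.262, limma adjusted p = 0.183). Pdk4 averaged 6.86 ± 0.0852 in JNKΔhepa hepatocytes and 6.35 ± 0.162 in WT hepatocytes (0.52, adjusted p = 0.31), also without overlap, and it passed without JNKΔhepa liver replicate 3, which enters the shared spread (adjusted p = 0.0406).

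Cyp4a31 read 8.70, 9.77 and 9.51 on the JNKΔhepa hepatocyte arrays, against 8.97, 9.35 and 9.07 on the WT hepatocyte arrays, with overlap because JNKΔhepa replicate 1 was the lowest of all 6. Its log2 change was 0.20 (limma adjusted p = 0.894), and that of Cyp4a14 was 0.01 (95% interval -0.67 to 0.69, adjusted p = 0.997). The 5 genes with values below 0 were Acot2 (-0.15), Acot1 (-0.11), Acaa2 (-0.04), Angptl4 (-0.03) and Hsd17b4 (-0.0038), and their limma adjusted p-values were 0.856 to 0.994. Without JNKΔhepa hepatocyte replicate 1 the values of Acot2, Acot1, Angptl4 and Hsd17b4 were 0.05, 0.22, 0.20 and 0.03, the median of the 35 genes was 0.24, 34 of the 35 values were above 0, and 0 passed, beside 1.67% of all genes.

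The remaining mitochondrial genes of hepatocytes ranged from 0.04 for Slc25a20 to 0.29 for Eci1, and Cpt1a, Hadhb, Hadh, Decr1 and Etfdh did not overlap between the genotypes. Ppara averaged 9.48 ± 0.0838 in JNKΔhepa hepatocytes and 9.27 ± 0.109 in WT hepatocytes (log2 change 0.21, limma adjusted p = 0.571), with all JNKΔhepa arrays above all WT arrays. The peroxisomal genes ranged from -0.0038 for Hsd17b4 to 0.41 for Acot3, and Acot3 was dim in 1 JNKΔhepa and all 3 WT hepatocyte arrays. Fabp1 differed by 0.07 (95% interval -0.11 to 0.25).

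Marker genes of other liver cells also differed between the hepatocyte preparations. The log2 of the summed Kupffer cell and macrophage markers was 8.70 to 9.32 in JNKΔhepa hepatocytes and 9.38 to 10.1 in WT hepatocytes, that of endothelial markers was 9.94 to 10.4 in JNKΔhepa and 10.3 to 10.8 in WT, and that of stellate cell markers was 8.56 to 9.06 in JNKΔhepa and 9.13 to 9.55 in WT. In hepatocytes 1 of 10 Kupffer cell markers (C1qb, log2 change -1.08, limma adjusted p = 0.0225) and 1 of 10 stellate cell markers (Ecm1, -0.71, adjusted p = 0.01) fell and 0 of 10 endothelial markers passed, beside 0.473% of all genes as lower. All 10 Kupffer cell markers had values below 0 (median -0.76), as did all 10 endothelial (median -0.54) and 9 of 10 stellate cell markers (median -0.34). An unadjusted p under 0.05 was reached by 8, 9 and 5 of them, beside 12.6% of all genes. The summed hepatocyte markers were 15.5 to 15.6 in JNKΔhepa hepatocytes and 15.4 to 15.5 in WT hepatocytes. The calls of C1qb and Ecm1 were each lost without JNKΔhepa hepatocyte replicate 2 or 3 or WT hepatocyte replicate 3, and that of C1qb also without WT hepatocyte replicate 1 (limma adjusted p-values of 0.0516 to 0.0606 for Ecm1 and 0.0599 to 0.108 for C1qb), and both missed it on the hepatocyte arrays alone (0.0807 for Ecm1 and 0.0928 for C1qb). The part of these cells in the hepatocyte values of the 35 genes was not tested. In liver the stellate sum was 11.4 to 11.6 in JNKΔhepa and 11.7 in WT, and 0 of 10 markers each of Kupffer cells, endothelium, stellate cells and hepatocytes passed. Of 7 cholangiocyte markers 1 passed in liver (Muc1, dim in both genotypes, 0.64), and 0 of 10 lymphocyte and neutrophil, 0 of 2 erythroid and 0 of 5 adipocyte markers did. In hepatocytes 0 of these 4 lists had a marker that passed.

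Whether the genotype effect itself differed between hepatocytes and liver was tested as an interaction. None of the 35 genes passed limma, beside 0.0106% of all genes, which is 2 genes, and 4 had an unadjusted p under 0.05 (7.22% of all genes). The hepatocyte effect was below the liver effect for 31 of the 35 genes, with a median difference of -0.14 beside -0.0217 over all genes tested, of which 44.7% were above 0. Acot2 had the smallest p, with a log2 change of -0.15 in hepatocytes and 0.75 in liver and a difference of -0.91 (SE 0.313, limma adjusted p = 0.579). Angptl4 changed by -0.03 in hepatocytes and 0.84 in liver, a difference of -0.86 (adjusted p = 0.611), and Cyp4a14 by 0.01 and 0.99, a difference of -0.98 (adjusted p = 0.684). For Ehhadh the difference was -0.43 (adjusted p = 0.673), and for Bdh1 -0.35 (adjusted p = 0.742). For Acadm it was -0.14, with a 95% interval of -0.37 to 0.10, and for Pdk4 -0.03, with an interval of -0.65 to 0.59. Without JNKΔhepa hepatocyte replicate 1, the low array of its group, the median difference was -0.10, and without WT liver replicate 3 it was -0.25.

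Between the tissues, the level of an array depends on how it was normalised. Hepatocyte arrays had medians over all probe sets of 3.22 to 3.28, against 4.09 to 4.12 for liver, and the median difference over all genes tested, hepatocytes minus liver, was -0.60 in JNKΔhepa and -0.58 in WT. As deposited, 26 of the 35 genes passed in JNKΔhepa, 1 higher and 25 lower in hepatocytes, beside 86.5% of all genes (0.616% higher and 85.9% lower). In WT 19 passed, 2 higher and 17 lower, beside 86.2% of all genes (0.6% higher and 85.6% lower). Relative to the median of all genes, 28 of the 35 stood above it in JNKΔhepa hepatocytes and 33 in WT hepatocytes. After joint quantile normalisation of the 12 arrays, 2 genes were higher and 3 lower in JNKΔhepa hepatocytes (14.3% and 15.6% of all genes), and 8 were higher and 0 lower in WT hepatocytes (13.6% and 14.8% of all genes). In both genotypes the set's median difference was below 0 as deposited. It was above 0 after joint quantile normalisation or after centring each array on its median. The median of all genes turned in the same way, and the set's median stood above it under each scaling.

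Pdk4 stood higher in hepatocytes under all 3 scalings and in both genotypes. It read 6.96, 6.82 and 6.81 in JNKΔhepa hepatocytes, against 6.00, 5.77 and 6.84 in JNKΔhepa liver. The WT arrays read 6.40, 6.48 and 6.17 in hepatocytes, against 5.68, 5.70 and 5.60 in liver. Among the liver arrays only JNKΔhepa replicate 3 reached the range of its hepatocytes. The difference as deposited was 0.66 in JNKΔhepa and 0.69 in WT (limma adjusted p = 0.00864 and 0.00684), and 1.38 and 1.40 after joint quantile normalisation. Angptl4, the other gene that was higher in WT hepatocytes as deposited, differed by 0.73 in WT (limma adjusted p = 0.0104) and by -0.13 in JNKΔhepa (adjusted p = 0.597).

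Acot3 read 2.93, 3.26 and 3.34 in JNKΔhepa hepatocytes, against 4.72, 5.11 and 7.08 in JNKΔhepa liver. In WT it read 2.81, 2.65 and 2.83 in hepatocytes, against 4.34, 4.27 and 6.78 in liver. All hepatocyte arrays were below all liver arrays, and 1 JNKΔhepa and all 3 WT hepatocyte readings were dim. Its difference was -2.46 in JNKΔhepa and -2.37 in WT as deposited (limma adjusted p = 0.00258 and 0.00342), and -1.61 and -1.63 after joint quantile normalisation, where the call was lost (adjusted p = 0.0816 in both). After centring it passed in JNKΔhepa (-1.59, limma adjusted p = 0.0416) and missed in WT (-1.53, adjusted p = 0.0509).

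Acot4 read 6.40, 6.87 and 6.84 in JNKΔhepa hepatocytes, against 7.92, 8.15 and 8.47 in JNKΔhepa liver, and 6.73, 6.50 and 6.63 in WT hepatocytes, against 7.59, 7.16 and 8.62 in WT liver. Its hepatocyte arrays were below its liver arrays in both genotypes. The difference was -1.48 in JNKΔhepa and -1.17 in WT as deposited (limma adjusted p = 0.000344 and 0.00192), and -0.84 (adjusted p = 0.045) and -0.52 (adjusted p = 0.207) after joint quantile normalisation. After centring it was -0.60 (limma adjusted p = 0.0796) and -0.33 (adjusted p = 0.324).

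Acaa1a read 6.79, 7.06 and 7.29 in JNKΔhepa hepatocytes, against 7.58, 7.65 and 7.68 in JNKΔhepa liver, and 7.08, 7.03 and 7.00 in WT hepatocytes, against 7.49, 7.45 and 7.77 in WT liver. As deposited it was lower in hepatocytes, by differences of -0.59 in JNKΔhepa and -0.54 in WT (limma adjusted p = 0.000584 and 0.00114). These differences were close to the median of all genes. They turned to 0.07 and 0.10 after joint quantile normalisation, beside medians of 0.0137 and 0.0155 over all genes. After centring each array on its median they were 0.29 and 0.30, beside 0.279 and 0.259 over all genes.

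**Figure D4:**
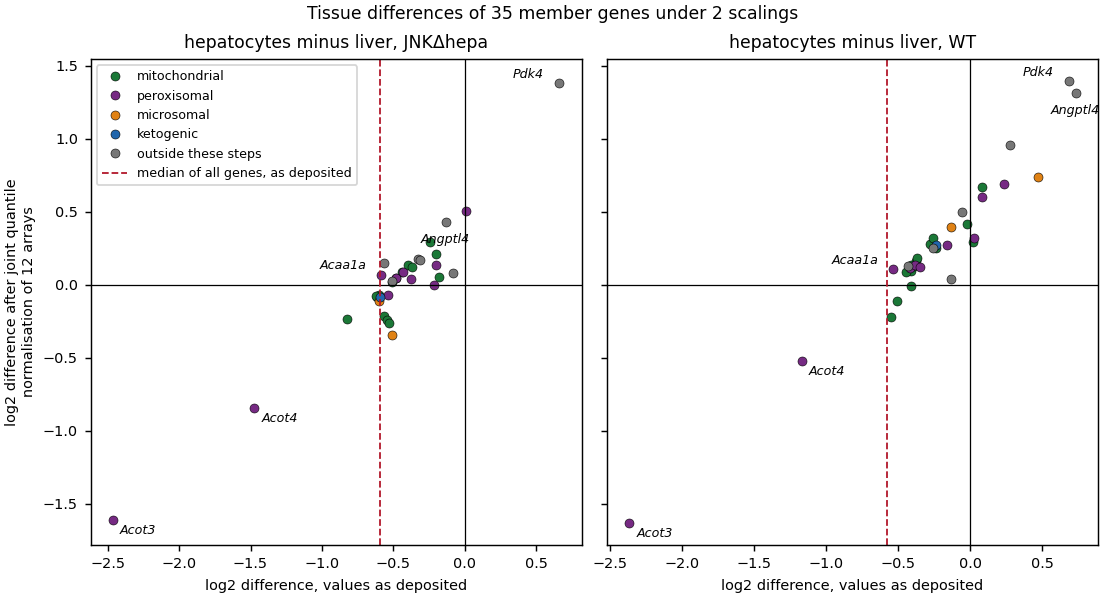
Hepatocytes minus liver for the 35 genes in JNKΔhepa (left) and WT (right), with the log2 difference as deposited on the horizontal axis and after joint quantile normalisation on the vertical axis; colours give the step and the dashed line the median of all genes as deposited. Pdk4 lies at the upper right in both genotypes, Acot3 and Acot4 at the lower left, and most genes lie right of the dashed line.

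Other genes of the same pathways were followed through 6 lists. Over all genes tested in liver, 0.558% passed as higher and 0.367% as lower. In liver, 1 of 15 other mitochondrial oxidation genes rose (median log2 change 0.22), 0 of 26 other peroxisomal genes passed (median 0.10), 0 of 7 other microsomal genes passed (median 0.00058), 1 of 5 other ketone body genes rose (median 0.27), 2 of 22 other PPAR-alpha targets rose and 1 fell (median 0.27), and 1 of 15 receptors and coregulators rose (median 0.03), beside a median of 0.0155 over all genes. Acad10, an acyl-CoA dehydrogenase family member, read 7.17, 7.29 and 7.18 in JNKΔhepa liver, against 6.17, 6.18 and 6.57 in WT liver, without overlap (0.91, SE 0.121, limma adjusted p = 0.00367). It also rose in hepatocytes, with readings of 6.38, 6.34 and 6.41 in JNKΔhepa, against 5.72, 5.45 and 5.84 in WT (0.71, adjusted p = 0.0152), a call lost without JNKΔhepa hepatocyte replicate 2 (0.0601) or 3 (0.0705) or WT hepatocyte replicate 1 (0.0535).

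The other liver calls in these lists were Plin2, which coats lipid droplets (log2 change 0.57, limma adjusted p = 0.0129), Slc16a1, a carrier of lactate and ketone bodies (0.88, adjusted p = 0.0291), Fgf21, a fasting hormone (0.77, dim in WT, adjusted p = 0.0373), Rxrg, a partner receptor of the RXR family (0.69, adjusted p = 0.0148), and Acsl4, a ligase of polyunsaturated chains, which fell (-0.63, adjusted p = 0.0325). Without 1 liver array at a time, the calls were lost for Plin2 in 3 of 6 cases (limma adjusted p-values of 0.0667 to 0.0717), Slc16a1 in 5 (0.0559 to 0.122), Acsl4 in 5 (0.0624 to 0.134) and Rxrg in 3 (0.0686 to 0.0729). That of Fgf21 was lost in 4 (0.0774 to 0.149), and also without JNKΔhepa hepatocyte replicate 3 (0.0539) or WT hepatocyte replicate 3 (0.0595), and after joint quantile normalisation (0.0642). Fitted on the liver arrays alone, Plin2 (0.0538), Slc16a1 (0.115), Acsl4 (0.0768) and Fgf21 (0.106) missed the limma threshold as well.

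In hepatocytes, 0.367% of all genes tested passed as higher and 0.473% as lower, with a median of -0.0018. In these lists 0 of 26 peroxisomal (median 0.05), 0 of 7 microsomal (median 0.02) and 0 of 5 ketone body genes (median 0.03) passed. Among receptors and coregulators 1 of 15 fell (median 0.15). The genes that rose were 2 of 15 other mitochondrial oxidation genes (median 0.08) and 2 of 22 other PPAR-alpha targets (median 0.14). Besides Acad10, these were Acad12, a related dehydrogenase (log2 change 0.64, limma adjusted p = 0.0258), Fgf21 (0.85, adjusted p = 0.0233), and Hilpda, a lipid droplet protein that inhibits lipolysis (0.51, dim in WT, adjusted p = 0.0341). Ppargc1a, a coactivator of PPAR-alpha, read 6.45, 6.23 and 6.47 in JNKΔhepa hepatocytes, against 7.46, 7.15 and 7.57 in WT hepatocytes. It fell by 1.01 on the log2 scale (SE 0.157, limma adjusted p = 0.00919), a call lost without JNKΔhepa hepatocyte replicate 2 (0.0564) or WT hepatocyte replicate 3 (0.0518). Leaving out 1 hepatocyte array at a time lost the call of Acad12 in 5 of 6 cases (limma adjusted p-values of 0.0518 to 0.116), of Fgf21 in 4 (0.06 to 0.112) and of Hilpda in all 6 (0.0561 to 0.115). Hilpda was lost without any 1 of 4 liver arrays as well (0.0505 to 0.0589). Fitted on the hepatocyte arrays alone, Acad10 (0.0503) and Hilpda (0.165) missed the limma threshold, and with array weights Acad12 (0.0612) and Hilpda (0.0565) did.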

How the data were processed

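RNA was labelled with an amplification kit for whole transcripts and hybridised to 12 one-colour arrays. The deposited values are log2 expression per probe set after RMA, per the submitters' processing notes, which give no version, and the scaling that left the tissues at different array medians is not given in the sources used here. Of 35556 probe sets, 21218 carried 1 symbol, 1881 several and 12457 none here. Of the 18820 genes, 1386 had several probe sets and were represented by the brightest, and multi-symbol probe sets were tested apart.

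Group means were fitted to the log2 values of all 12 arrays with limma 3.58.1 (lmFit, eBayes, R 4.3.3), and p-values were adjusted by Benjamini-Hochberg over all genes, with a threshold of 0.05. The number of arrays, 3 a group, limits the precision. Genotypes were compared within each tissue, tissues within each genotype, and the difference of the genotype effects as an interaction. A dim reading lay below its own array's median over all probe sets. The fit was tested on simulated data. Each mouse gave both tissues, per the labels, which is where the pairing comes from: deviations of same-mouse samples correlated at -0.0133 to 0.0982, and same-numbered samples of different mice at -0.12 to 0.112.

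The 39 genes, the lists of other genes and the tests were chosen with earlier results of these data known. Any of the 39 could be named, with array values where a gene passed, the smallest p of a step with none, and up to 3 genes of each list past the threshold. Alternatives were joint quantile normalisation, centring, a filter on dim genes, the mean of a gene's probe sets, array weights, an intensity trend with robust prior, arrays of 1 tissue, replicate blocks and leaving out each array. Promoters came from RefSeq (GRCm38.p6), with no genome or protein table used here. Figures were drawn with matplotlib 3.10.9.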

Additional observations from a re-analysis of the deposited data

How the results depend on the processing

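In liver 2 genes passed, beside 0.925% of all genes. Array weights gave 5 (2.17% of all genes) and an intensity trend with robust prior 5 (1.14%), whereas arrays of the liver alone gave 0 (0.675%). That last fit estimates the spread from fewer samples, and its limma adjusted p was 0.0538 for Acadm and 0.0707 for Ehhadh. The cause of these changes in count was not tested. Without 1 array the liver count ran from 0 to 7 and its median from 0.211 to 0.418. In hepatocytes the count of 0 became 1 (Acadm) with the filter on dim genes, which leaves fewer genes tested (2.26% of them called), and 1 with the trend (1.07%), and ran from 0 to 1 without 1 array, with a median of 0.107 to 0.237.

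Between tissues, joint quantile normalisation gave 8 genes in WT and 5 in JNKΔhepa, and centring gave 31 in WT (56.5% of all genes called) and 23 in JNKΔhepa (60.4%), since the scalings differ by construction. The median difference of -0.482 in JNKΔhepa turned to 0.043 (quantile) and 0.393 (centred), and that of -0.259 in WT turned to 0.249 and 0.576. The median over all genes turned as well. It went from -0.596 to 0.0137 and 0.279 in JNKΔhepa, and from -0.576 to 0.0155 and 0.259 in WT. Acaa1a turned to 0.0686 and 0.289 in JNKΔhepa and to 0.105 and 0.299 in WT.

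With the replicate number as a block, 3 genes passed in liver: Ehhadh (adjusted p = 0.0384), Vnn1 (0.0431) and Angptl4 (0.0384), beside 0.584% of all genes, while Acadm had 0.054. Outside the 35, the same block lost the calls of Plin2 (0.058), Slc16a1 (0.0834), Acsl4 (0.0627) and Rxrg (0.0507), and an intensity trend that of Hilpda in hepatocytes (0.0549). The replicate number joins arrays of different mice, and the labels name no batch behind it. Deviations of arrays joined in this way correlated at -0.12 to 0.112. With the mouse as a random block, the count in liver stayed at 2 and 0 of 83 results changed their call. That fit used a correlation of 0.0487 between samples of a mouse, so it was close to the plain fit and could change little. With the mouse as a fixed block the tissue counts were 24 in JNKΔhepa and 20 in WT, beside 86.5% and 86.4% of all genes.

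Most changes of sign were of values near 0. Further from 0 were Acot3 in liver (0.51) and the tissue differences of Acaa1a (-0.59 in JNKΔhepa and -0.54 in WT). In the genotype comparison of hepatocytes, Cyp4a14 (-0.0155) and Acaa1a (-0.0062) changed sign under quantile normalisation. Angptl4 (0.0386) and Hsd17b4 (0.0048) did so with array weights, and Hsd17b4 (0.0205) after centring. Without 1 array, values ran from -0.0447 to 0.0537 for Fabp1 and -0.213 to 1.33 for Acot3 in liver. In hepatocytes they ran from -0.128 to 0.273 for Cyp4a14, -0.0265 to 0.509 for Cyp4a31, -0.107 to 0.143 for Acaa1a, -0.139 to 0.196 for Angptl4, -0.046 to 0.114 for Slc25a20, -0.322 to 0.215 for Acot1, -0.256 to 0.0497 for Acot2 and -0.046 to 0.0315 for Hsd17b4. Of the alternatives for single genes, 1858 kept direction and side of the threshold, 86 lost the call, 17 gained it and 28 changed sign. The interaction count stayed at 0 under every alternative run.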
